A study of Mus musculus with 18 samples.

Results

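Slc22a3, 2900026A02Rik, Mdga1, Nlrc3, Mmp2, Adam11, Ndrg1, Plcg1 and Stx3 are 9 genes, of 14419 in the deposited table, whose transcripts were lower after tamoxifen in blood-forming cells of the mouse. They were found in the table by their gene symbol, and all 9 had 1 row each. They had been picked from these same libraries: 8 because they were lower with tamoxifen in 2 of 3 populations, and Stx3 because it was strongly lower in 1. Their tamoxifen differences are therefore a description. The adjusted p and intervals printed with them are the values behind the choice and are no evidence for it. Differences between cell populations, averaged over both treatments, were tested. Their error is uncorrelated with that of the tamoxifen differences in this balanced design, but the averages hold the tamoxifen libraries, so a gene chosen for low values there in LT and ST has lower LT and ST averages. The oil libraries alone are given beside each such comparison. The members were chosen on tamoxifen against oil, so high oil values chose them as well as low tamoxifen values. What either treatment gives alone is therefore a description too.

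RNA-seq was done on bone marrow cells, sorted into 3 populations, of C57BL/6 mice, adult and male. The mice had received tamoxifen, which binds the estrogen receptor and blocks or stimulates it depending on the tissue, or its corn oil vehicle. The populations are named LT-HSC, ST-HSC and MPP in the series' design text, and are written LT (long-term haematopoietic stem cells), ST (short-term) and MPP (multipotent progenitors) here. MPP were taken after 1 week of treatment, and LT and ST after 2 weeks, so population and duration cannot be told apart where MPP are compared with the others. Each of the 6 groups (LT, ST and MPP, each with oil or tamoxifen) held 3 libraries, 18 in all. No allele or transgene is given for any group. The design text calls the 3 libraries biological replicates, and the sources used here do not say whether 1 library is 1 mouse, so the spread and the p-values describe these libraries. In bulk RNA, fewer cells of a type and less RNA per cell cannot be told apart.

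Libraries held 2728800 to 5279821 reads in listed genes, and a member had 8 to 468 reads in a library. Some stem and progenitor markers set MPP apart from LT and ST, and others did not. In oil, the MPP mean lay between those of LT and ST for Kit (MPP 859, LT 1086, ST 632) and Hlf (858.5, 1114 and 472). The same held for Mecom (138, 250 and 93.0) and Cd48 (72.0, 11.3 and 99.6). Slamf1, a receptor that marks long-term stem cells, averaged 25.5 ± 6.35 (SD, n = 3) in LT oil, 19.1 ± 9.57 in ST oil and 0.785 ± 0.455 in MPP oil, in the deposited table's normalised signal. Flt3, a receptor of multipotent progenitors, averaged 83.1 ± 34.4, 142 ± 52.3 and 681 ± 31.0 in the same order. LT and ST oil libraries overlapped in both genes, and differed in Cd48, a marker that long-term stem cells lack, at 7.13 to 13.7 in LT oil and 81.9 to 109 in ST oil. All 10 stem and progenitor markers were read in every group. The mitochondrial ribosomal RNAs took 25.5% of the reads of LT tamoxifen library A, against 17.7% to 18.7% in the other LT libraries, and up to 24.4% elsewhere. The sample titles number the ST libraries anew.

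As background, the products of the 9 genes act in different places in the cell. Slc22a3 is an organic cation transporter of the plasma membrane, and Mdga1 is a surface protein anchored by a lipid that binds neuroligins. Mmp2 is a secreted gelatinase that cuts the extracellular matrix, and Adam11 is a membrane relative of the ADAM proteases that lacks a working protease site. Nlrc3 is a cytosolic member of the NLR family that dampens innate immune signalling, Plcg1 is a phospholipase that makes second messengers downstream of receptor kinases, and Ndrg1 is a cytoplasmic protein induced by stress and low oxygen. Stx3 is a syntaxin that takes part in membrane fusion at secretory vesicles. 2900026A02Rik is a gene without an established name.

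Lower levels with tamoxifen were seen in all 3 populations for all 9 genes, and the size varied by gene and population. The median log2 difference of the 9 was -0.38 in MPP, -0.78 in LT and -0.77 in ST, and over all 14419 genes it was -0.00014, -0.015 and 0.0059. With limma on log2(value + 1), the adjusted p (Benjamini-Hochberg over all genes) was under 0.05 for 2 of 9 genes in MPP, 6 of 9 in LT and 9 of 9 in ST. Of all genes, 0.0208%, 0.277% and 3.6% were lower by that rule and 0.0347%, 0.139% and 6.01% higher, while 0 of the 9 members were higher in any population. Because these contrasts chose the members, nothing is read from those shares. The smallest margins were 0.0491 for 2900026A02Rik in MPP and 0.0472 for Ndrg1 in LT on the inside, and 0.0514 for 2900026A02Rik in LT on the outside.

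**Figure D1:**
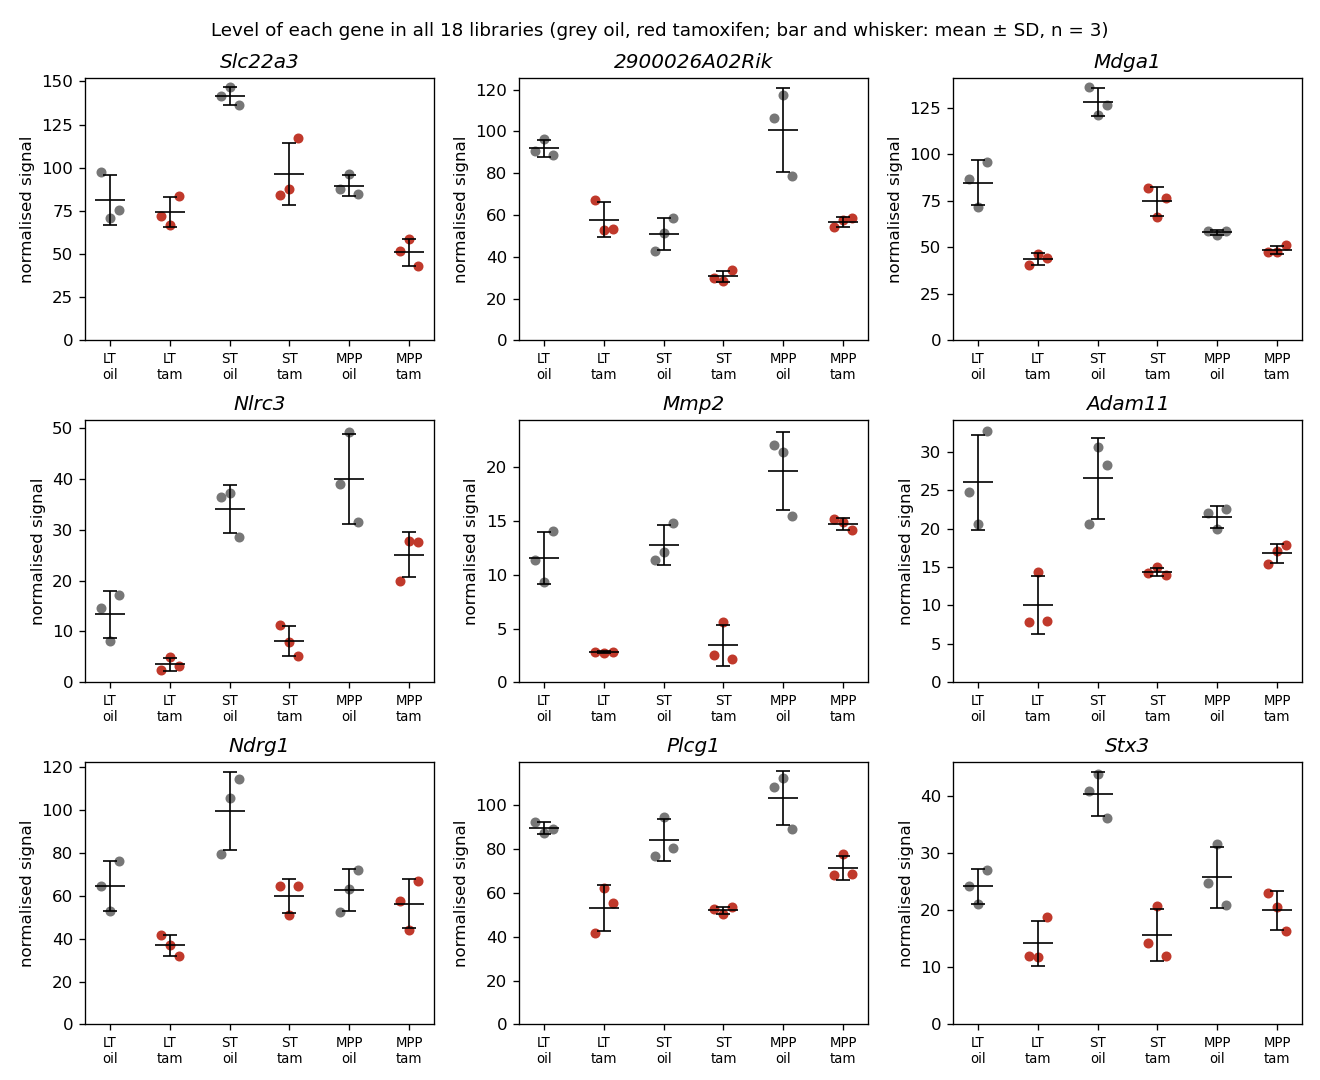
Normalised signal of the 9 genes (vertical axes, from 0) in the 6 groups; each dot is 1 library, grey for oil and red for tamoxifen, with the mean and SD of 3 libraries in black. Every red group mean lies below its grey partner, and the 3 groups of dots that overlap are Slc22a3 in LT and Ndrg1 and Stx3 in MPP.

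All tamoxifen libraries lay below all oil libraries for 7 of 9 genes in MPP, 8 of 9 in LT and 9 of 9 in ST, and for 6 genes in all 3 populations. Over all genes, 7.23%, 9.36% and 12.2% were separated in this direction in MPP, LT and ST. The share separated in all 3 at once was not counted, so nothing is read from the 6. A set of 20 genes passed the threshold downward in 2 or more populations; 8 of the members are in it, and Pdgfrb, a growth factor receptor, was the one gene past it in all 3.

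Nlrc3 (ENSMUSG00000049871) showed the largest difference of the 9 in ST. In ST it was at 36.4, 37.3 and 28.6 with oil and at 11.3, 7.86 and 5.26 with tamoxifen, which is 76.1% lower (log2 difference -1.98, 95% interval -2.57 to -1.40). In LT it was at 14.7, 8.21 and 17.1 with oil and at 2.53, 4.99 and 3.16 with tamoxifen, 73.3% lower. The MPP libraries were at 39.1, 49.1 and 31.6 against 20.0, 27.8 and 27.5, 37.1% lower. The groups did not overlap in any population, and the tamoxifen LT libraries were the lowest of all, with 8 to 17 reads each. Pdgfrb, for comparison, was 78.6% lower in LT.

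Mmp2 (ENSMUSG00000031740) showed the largest log2 difference of the 9 in LT, -1.71 (95% interval -2.29 to -1.13). It was at 11.4, 9.29 and 14.1 in LT oil and at 2.83, 2.71 and 2.86 in LT tamoxifen, 75.8% lower, with 9 reads in each of those 3 libraries. In ST it was at 11.4, 12.1 and 14.8 with oil and at 2.52, 5.57 and 2.18 with tamoxifen, 73.1% lower. The MPP libraries were at 22.0, 21.3 and 15.4 against 15.1, 14.9 and 14.1, 25.0% lower, and the groups were parted by a narrow gap. The ratio of pooled reads was 0.232 in LT (95% exact interval 0.148 to 0.353, counting error only), 0.255 in ST (0.17 to 0.372) and 0.755 in MPP (0.617 to 0.923). Mmp2 is a gene of stromal cells too. Of 18 markers of stroma and endothelium, 10 are in the table, and their summed level ran from 268 to 276 in the oil libraries of LT and from 287 to 336 in its tamoxifen libraries. In ST it ran from 186 to 211 with oil and from 241 to 261 with tamoxifen, and in MPP from 207 to 216 and from 172 to 229. In LT, Vwf averaged 107 with oil and 168 with tamoxifen, and Pecam1 64.5 and 42.5. These genes differed between the sorted populations too. In oil, Vwf averaged 107 in LT, 57.4 in ST and 29.1 in MPP, and Tek 39.4, 22.4 and 5.24. Pecam1 ran the other way, at 64.5, 79.5 and 131. Col1a2, Lepr, Sparc, Postn and Kdr each averaged 3.40 or less in LT oil, so the sum is mostly that of other genes in the list. The markers did not move as 1 group: 6 of 10 had a log2 difference below 0 in MPP, 6 in LT and 2 in ST. Tek passed the threshold upward in ST (0.81, limma adjusted p = 0.0208). None of the 10 was at 0 reads in any group, and their part in the difference was not tested.

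Adam11 (ENSMUSG00000020926) differed most in LT among its 3 populations. It was at 24.7, 20.6 and 32.7 in LT oil and at 7.88, 14.4 and 7.97 in LT tamoxifen, 61.2% lower. In ST it was at 20.6, 30.7 and 28.3 against 14.2, 15 and 14.0, 45.7% lower. In MPP it was at 22.0, 19.9 and 22.6 against 15.3, 17.1 and 17.8, 22.1% lower. The tamoxifen libraries stayed below the oil libraries in each population.

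Stx3 (ENSMUSG00000041488), chosen on ST alone, was at 41.0, 43.9 and 36.2 there with oil and at 14.2, 20.7 and 11.9 with tamoxifen, 61.3% lower (log2 difference -1.35, 95% interval -1.81 to -0.88). In LT it was at 24.3, 21.1 and 27.2 against 12.1, 11.8 and 18.8, 41.2% lower, with an adjusted p of 0.126 by limma. In MPP it was at 24.7, 31.7 and 21.0 against 23.1, 20.5 and 16.4, and the groups overlapped. Its ST oil libraries were the highest of the 18.

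Slc22a3 (ENSMUSG00000023828) and 2900026A02Rik (ENSMUSG00000051339) are the members that passed the threshold in MPP. Slc22a3 was at 88.0, 96.4 and 84.6 in MPP oil and at 51.9, 58.6 and 42.9 in MPP tamoxifen, 42.9% lower. In ST it was at 141, 147 and 136 against 84.1, 87.9 and 117, 31.8% lower. In LT it was at 97.6, 70.9 and 75.6 against 72.1, 66.6 and 83.7, 8.89% lower, and the groups overlapped. Slc22a3 is thus the member with an interval across 0 in LT (log2 difference -0.13, 95% interval -0.44 to 0.19). Whether its difference with tamoxifen varies between populations was not tested.

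2900026A02Rik was lower by 37.2% to 43.8% in the 3 populations. It was at 106, 117 and 78.5 in MPP oil and at 54.1, 57.5 and 58.3 with tamoxifen, 43.8% lower. In LT it was at 90.8, 96.5 and 88.7 against 67.4, 52.6 and 53.4, 37.2% lower, and in ST at 43.0, 51.2 and 58.5 against 29.9, 28.4 and 33.5, 39.8% lower. No tamoxifen library reached an oil library of its own population.

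Mdga1 (ENSMUSG00000043557) was at 87.0, 71.7 and 95.7 in LT oil and at 40.3, 46.7 and 44.4 in LT tamoxifen, 48.4% lower. In ST it was at 136, 121 and 127 against 81.7, 66.1 and 76.4, 41.6% lower. MPP libraries held 59.1, 56.6 and 58.7 against 47.4, 47.5 and 51.2, 16.2% lower. The groups were separate in each population, and the MPP difference was the smallest of the 3.

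Ndrg1 (ENSMUSG00000005125) and Plcg1 (ENSMUSG00000016933) were moderately lower in LT and ST. Ndrg1 was at 64.7, 52.9 and 76.2 in LT oil against 41.8, 37.2 and 32.0, 42.7% lower, and at 79.5, 106 and 115 in ST oil against 64.7, 51.0 and 64.6, 39.8% lower. In MPP it was at 52.6, 63.2 and 72.2 against 57.8, 44.1 and 66.9, with overlap. Plcg1 was at 92.2, 87.1 and 89.0 in LT oil against 41.8, 62.1 and 55.2, 40.7% lower. In ST it was at 76.5, 94.6 and 80.5 against 52.5, 50.1 and 53.3, 38.0% lower. In MPP it was at 108, 112 and 89.1 against 68.1, 77.5 and 68.3, 30.9% lower. Plcg1 libraries did not overlap in any population. In the GENCODE annotation of a later mouse build, exons of Plcg1 share 379 bases with Zhx3, and exons of Ndrg1 share 419 bases with Gm17035, on the opposite strand. Slc22a3 shares 420 bases with Plg in the same way. The strand setting of the counting is not stated in these sources, so reads of such partners cannot be told apart.

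**Figure D2:**
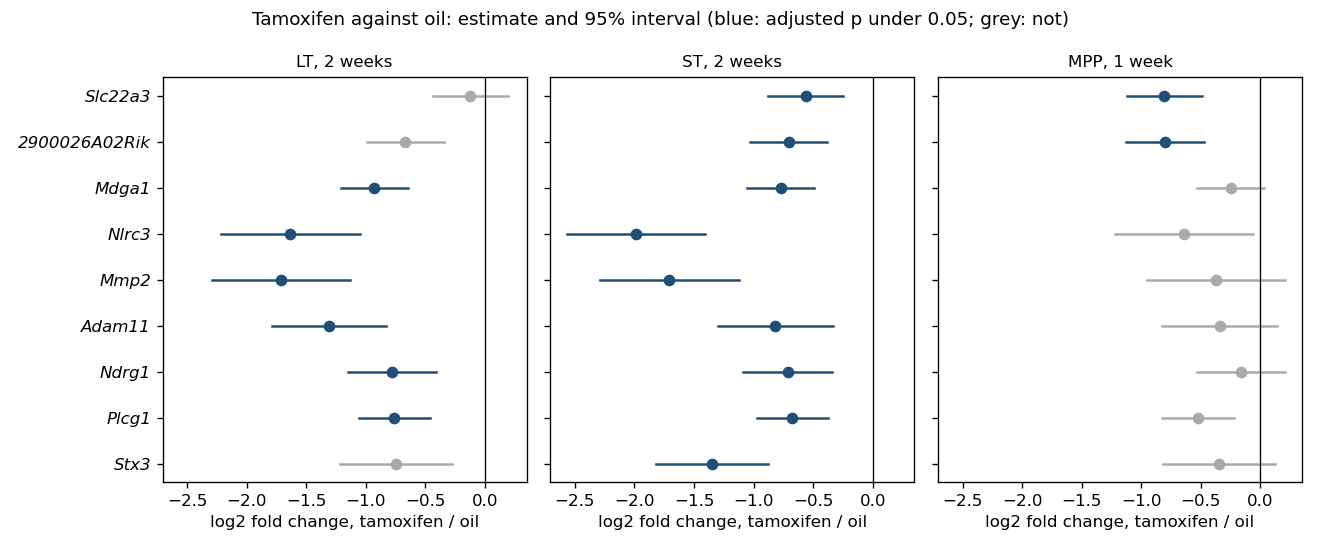
Log2 fold change, tamoxifen over oil (horizontal axis), of the 9 genes in LT, ST and MPP, with 95% intervals from limma; blue marks an adjusted p under 0.05 and grey the rest. All 27 estimates lie below 0, and those of Nlrc3 and Mmp2 in LT and ST lie farthest from it, between -1.63 and -1.98.

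Several of these selecting calls were lost when 1 library was left out, often any of several, while their estimates kept their direction. The log2 difference ran from -0.91 to -0.69 for Slc22a3 in MPP and from -0.97 to -0.68 for 2900026A02Rik in MPP. For Adam11 in ST it ran from -0.98 to -0.71. With any 1 of MPP oil libraries 1 and 2 or MPP tamoxifen libraries 1, 2 and 3 left out, 0 of the 2 MPP members passed (limma; 819 genes had an unadjusted p under 0.05 with all libraries). Without LT oil library C, 1 of the 6 LT members did, Mdga1, and with the LT groups fitted alone 0 of the 6 did (limma; 1952 genes had an unadjusted p under 0.05 in the fit to all groups; over all groups edgeR called 5 of the 6 and DESeq2 3, with no adjusted p from DESeq2 for the other 3). Without LT tamoxifen library A, the one rich in mitochondrial ribosomal RNA, 7 passed. In ST, Slc22a3 did not pass without ST oil A or B or ST tamoxifen A or B, and Adam11 did not without ST oil B or C or ST tamoxifen A, B or C. Ndrg1 did not pass in ST without ST oil B or C or ST tamoxifen B, and in LT without LT oil A or C or LT tamoxifen C. Plcg1 did not in LT without LT oil A or C.

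Other cell types' markers moved in part with tamoxifen, and their part in the differences of the 9 genes was not tested. The summed level of 10 erythroblast markers in ST was 108 to 128 with oil and 163 to 184 with tamoxifen. It was 279 to 349 and 324 to 484 in LT, and 106 to 138 and 128 to 450 in MPP. Add2 (log2 difference 1.72, limma adjusted p = 0.0047), Klf1 (1.325, 0.031) and Tfrc (0.58, 0.0413) passed upward in ST. Add2 had 7 reads over all ST oil libraries (mean 0.879). The list did not move as 1 group: 4 of the 10 had a log2 difference below 0 in ST, 3 in LT and 0 in MPP. The 4 were Hbb-b1 (12.5 with oil, 7.77 with tamoxifen), Hba-a1 (3.45, 2.05), Alas2 (5.61, 3.82) and Epb4.2 (3.10, 1.29), and 0 passed downward. The call of Tfrc was not made by edgeR or DESeq2. Most of the ST sum was Tfrc, at 78.1 ± 11.1 with oil and 117 ± 11.2 with tamoxifen. Hbb-b1 varied widely in MPP tamoxifen libraries (59.2 ± 82.0). The sum of the 7 measured T and NK cell markers, of 12 listed, in LT was 57.2 to 76.4 with oil and 48.0 to 60.6 with tamoxifen, in ST 156 to 183 and 122 to 178, and in MPP 102 to 131 and 92.4 to 108. For the 7 measured B cell markers, of 10 listed, it was 21.6 to 36.5 and 14.4 to 16.1 in LT, 17.0 to 40.6 and 15.3 to 36.4 in ST, and 32.3 to 46.1 and 27.8 to 39.4 in MPP. The sum of 9 neutrophil markers of 10 was 36.1 to 80.6 and 19.5 to 43.5 in LT, 131 to 305 and 117 to 237 in ST, and 155 to 558 and 175 to 626 in MPP. The sum of 11 macrophage and monocyte markers of 12 was 268 to 304 and 156 to 294 in LT, 559 to 755 and 674 to 748 in ST, and 438 to 494 and 543 to 736 in MPP, the population where it did not overlap. Most of the ST sum was Lyz2, at 519 ± 112 with oil and 544 ± 50.8 with tamoxifen. Of the 11, 2 had a log2 difference below 0 in MPP, 6 in LT and 1 in ST. An unadjusted p under 0.05 (limma) was seen for 3, 1 and 5. Limma called 0 in each population, and edgeR and DESeq2 each called 1, in ST. Of the 10 stem and progenitor markers, Kit, a growth factor receptor, was lower in LT, from 1086 ± 61.2 to 741 ± 52.6 (log2 difference -0.55, limma adjusted p = 0.0159). In ST, the transcription factor gene Mecom was higher, from 93.0 ± 16.1 to 155 ± 10.8 (0.74, limma adjusted p = 0.00746), and Meis1, another, was lower, from 343 ± 13.5 to 265 ± 21.3 (-0.37, limma adjusted p = 0.0318). By limma the other markers of this list did not pass. In MPP, LT and ST, 7, 8 and 7 of the 10 had a log2 difference below 0. An unadjusted p under 0.05 (limma) was seen for 3, 8 and 5. Of the 10, edgeR called 0, 2 and 3, and DESeq2 1, 4 and 3. Their sum in LT was 3105 to 3576 with oil and 2214 to 2524 with tamoxifen. It was 2029 to 2624 and 1796 to 2041 in ST, and 3458 to 3746 and 2969 to 3429 in MPP.

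ST and LT differed in 6 of the 9 genes in the oil libraries alone. No share of all genes stands beside that count, so nothing is read from it. Over both treatments they differed in 6 as well. ST was higher than LT for 5 genes and lower for 1, at a background of 19% of all genes higher and 19.6% lower (limma, adjusted p under 0.05). The 5 were Nlrc3, with a log2 difference of 1.16 ± 0.20 (SE), Mdga1 with 0.68 ± 0.097, Ndrg1 with 0.65 ± 0.13, Slc22a3 with 0.58 ± 0.11 and Stx3 with 0.42 ± 0.16, and the limma adjusted p ranged from 3.18e-06 for Mdga1 to 0.041 for Stx3. 2900026A02Rik was lower in ST by a log2 difference of -0.87 ± 0.11 (limma adjusted p = 6.2e-07). The call of Stx3 was lost with the tamoxifen libraries alone (0.12, limma adjusted p = 0.744), and with any 1 of LT oil A or B, LT tamoxifen A or B, ST oil A or B, or ST tamoxifen B left out. It was also lost with quantile normalisation (limma adjusted p = 0.0529) and with the LT and ST groups fitted alone (limma adjusted p = 0.0596). The call of Slc22a3 was lost with the tamoxifen libraries alone (0.36, limma adjusted p = 0.0853).

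Averaged over both treatments, 3 of the 9 genes were higher in MPP than in LT and 0 lower, at a background of 13.7% of all genes higher and 12.9% lower. In the oil libraries alone 2 members passed, 1 in each direction, with no share of all genes beside that count. Nlrc3 was higher by 2.04 ± 0.20 on the log2 scale (limma adjusted p = 5.23e-09), Mmp2 by 1.38 ± 0.20 (3.75e-06) and Plcg1 by 0.32 ± 0.10 (0.022). In the oil libraries alone Nlrc3 stayed past the threshold, while Mmp2 (0.71, limma adjusted p = 0.0939) and Plcg1 (0.20, limma adjusted p = 0.445) did not, and Mdga1 was lower in MPP (-0.53, limma adjusted p = 0.00759). The tamoxifen libraries alone gave -0.53 for Slc22a3, 0.73 for Adam11 and 0.58 for Ndrg1, against 0.15, -0.24 and -0.040 with oil alone. Values of either treatment alone are a description. The difference between the treatments in MPP helped to pick Slc22a3, and that in LT helped to pick Mdga1, Adam11 and Ndrg1. Plcg1 did not pass without LT tamoxifen A, MPP oil 1 or 2, or MPP tamoxifen 2, or with quantile normalisation (limma adjusted p = 0.0688).

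MPP and ST differed in 5 of the 9 genes in the oil libraries alone, a count with no share of all genes beside it. On average they differed in 7, at a background of 19.8% of all genes higher in MPP and 18.6% lower. Mmp2 (log2 difference 1.24 ± 0.20), 2900026A02Rik (0.92 ± 0.11), Nlrc3 (0.88 ± 0.20) and Plcg1 (0.37 ± 0.10) were higher in MPP, with a limma adjusted p of 0.00536 or less. Mdga1 (-0.86 ± 0.097), Slc22a3 (-0.77 ± 0.11) and Ndrg1 (-0.38 ± 0.13) were lower, with a limma adjusted p of 0.0186 or less. In the oil libraries alone the limma adjusted p was 0.613 for Nlrc3 (0.21), 0.124 for Mmp2 (0.58) and 0.128 for Plcg1 (0.30), and Stx3 was lower in MPP (-0.64, limma adjusted p = 0.0337). Stx3 was picked for its difference in ST, to which high ST oil values add, so its oil value is a description. Ndrg1 did not pass without MPP oil 1, MPP tamoxifen 2 or ST oil C, or in the tamoxifen libraries alone (-0.11, limma adjusted p = 0.744). Adam11 passed in none of the 3 averaged comparisons, with estimates of 0.28 (95% interval -0.062 to 0.62) for ST against LT, 0.24 (-0.096 to 0.58) for MPP against LT and -0.034 (-0.37 to 0.31) for MPP against ST.

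**Figure D3:**
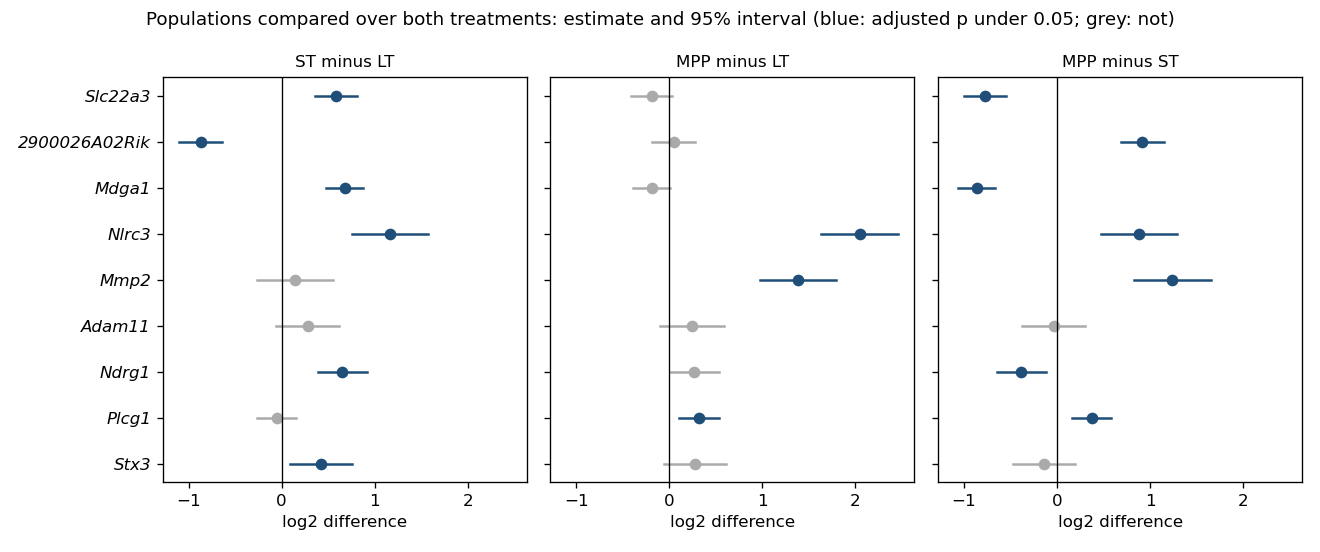
Log2 difference between populations (horizontal axis), averaged over oil and tamoxifen, of the 9 genes, with 95% intervals from limma; blue marks an adjusted p under 0.05 and grey the rest. Nlrc3 is highest in MPP and lowest in LT, and 2900026A02Rik is lowest in ST.

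Levels of different genes can be set side by side per kilobase of exon, with lengths from the GENCODE annotation of a later build than the authors'. In ST oil, Slc22a3 was the most abundant at 31.3 ± 1.16 per kb (SD, n = 3), followed by Ndrg1 at 15.1 ± 2.76, Mdga1 at 13.5 ± 0.795 and Plcg1 at 10.7 ± 1.21. Ndrg1 and Mdga1 lay within 1 SD of Ndrg1 of each other, while the SD ranges of Mdga1 and Plcg1 did not overlap. Stx3 followed at 7.07 ± 0.681, and Nlrc3, 2900026A02Rik, Adam11 and Mmp2 lay between 3.78 and 4.82 with overlapping SDs. In LT oil Nlrc3 was the lowest of the 9, at 1.89 ± 0.652 per kb.

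RefSeq promoter sequences of GRCm38.p6 were matched for 6 of the 9 genes, in 7 windows of 250 bases before to 50 after a start, because 2900026A02Rik has a pair of starts. Mmp2, Adam11 and Ndrg1 were not matched. The full estrogen response element GGTCANNNTGACC was searched first, as tamoxifen binds the estrogen receptor, and was in 0 of 7 windows (0.07% of 32851 promoters). An arm of it with an A before, AGGTCA, was in 1 of 7 (16.3% of all promoters), the second start of 2900026A02Rik, from base -140. The shorter arm GGTCA by itself was not searched. Sp1 GGGCGG was in 4 of 7 (35.7%), PU.1 GAGGAA in 2, those of Slc22a3 and Stx3 (28.3%), and AP-1 TGANTCA (7.81%), the GATA motif (AGATAA, 11.2%), Runx TGTGGT (16.8%) and the E-box CACGTG (7.15%) in 0. Both strands were searched, and the letters are a match, not a binding site. The 250 bases before the start are shown for the member with the largest difference and for the 2 with a match among those called in MPP, in lower case with motif matches in capitals (AGGTCA and the Sp1 letters in 2900026A02Rik, PU.1 letters in Slc22a3, none in Nlrc3). Nlrc3 is at chr16:3976633-3976882, 2900026A02Rik at chr5:113163314-113163563 and Slc22a3 at chr17:12507705-12507954, each on the minus strand and printed 5′ to 3′.
Nlrc3: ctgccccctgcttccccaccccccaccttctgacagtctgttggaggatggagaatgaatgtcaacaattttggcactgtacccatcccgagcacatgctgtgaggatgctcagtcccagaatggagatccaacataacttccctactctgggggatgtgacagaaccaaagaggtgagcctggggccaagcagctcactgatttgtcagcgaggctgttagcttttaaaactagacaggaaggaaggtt
2900026A02Rik: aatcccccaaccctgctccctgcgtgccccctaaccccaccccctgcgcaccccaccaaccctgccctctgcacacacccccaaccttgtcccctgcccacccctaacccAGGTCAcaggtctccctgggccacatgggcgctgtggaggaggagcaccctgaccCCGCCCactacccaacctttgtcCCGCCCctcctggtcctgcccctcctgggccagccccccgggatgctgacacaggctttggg
Slc22a3: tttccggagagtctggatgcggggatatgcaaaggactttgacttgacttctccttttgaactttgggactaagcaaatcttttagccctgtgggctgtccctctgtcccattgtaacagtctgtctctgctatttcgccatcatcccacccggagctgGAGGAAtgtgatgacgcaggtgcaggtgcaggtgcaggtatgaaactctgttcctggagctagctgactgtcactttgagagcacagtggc

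Relatives and partners of the 9 genes mostly did not pass the threshold with tamoxifen. Of 97 genes measured over 8 such lists, limma called 0 in MPP, 1 in LT and 6 in ST. An unadjusted p under 0.05 (limma) was seen for 8, 12 and 20. Of the 97, edgeR called 0, 1 and 6, and DESeq2 1, 4 and 6. The limma calls are 1.03% of the 97 in LT and 6.19% in ST, beside 0.416% and 9.61% of all genes called in either direction. None of the 18 NLR family and STING pathway genes passed in any population by limma, edgeR or DESeq2, with an unadjusted p under 0.05 for 0 in MPP, 1 in LT and 1 in ST. The median log2 difference of these 18 was 0.047 in MPP, -0.11 in LT and -0.032 in ST. The same 3 tools called 0 of 12 metalloproteinases and inhibitors, of which 1, 3 and 3 had an unadjusted p under 0.05 in MPP, LT and ST. They also called 0 of 6 organic cation and carnitine transporters, with 1, 0 and 0. Of 7 ADAM family genes limma called 0 (unadjusted 2, 0 and 2), and edgeR and DESeq2 called 1 in ST.

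The relatives that limma called were few. Itpr2, an inositol trisphosphate receptor that acts after Plcg1, was the gene limma called in LT, from 57.9 ± 4.70 to 36.6 ± 2.60 (log2 difference -0.65, limma adjusted p = 0.035), and it was lower in ST too, from 68.3 ± 4.19 to 44.4 ± 5.71 (-0.62, limma adjusted p = 0.00706). Ntm, an IgLON relative of Mdga1, fell in ST from 2.30 ± 1.59 to 0.325 ± 0.337 (-1.24, limma adjusted p = 0.0319). Its ST tamoxifen mean lay below the value of 3 reads in those libraries (0.77 to 0.857), and DESeq2 gave it no adjusted p. Ndrg2, the relative of Ndrg1, rose in ST from 9.43 ± 5.19 to 20.8 ± 9.35 (1.15, limma adjusted p = 0.0352), a call edgeR did not make (adjusted p = 0.0577). Snap23, a fusion partner of syntaxins, rose in ST from 94.1 ± 22.4 to 155 ± 29.7 (0.73, limma adjusted p = 0.00589), while Stx16, another syntaxin, fell from 127 ± 9.05 to 90.3 ± 9.19 (-0.50, limma adjusted p = 0.027).

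Across the 18 libraries the 9 genes were positively correlated for the most part. The 36 pairs had a median Pearson's r of 0.63 and a range of -0.15 to 0.89 on log2(value + 1), the highest being Nlrc3 with Mmp2. These points share the group means that tamoxifen and population set. After each group mean was subtracted, the median r was 0.11 and 22 of 36 were above 0.

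**Figure D4:**
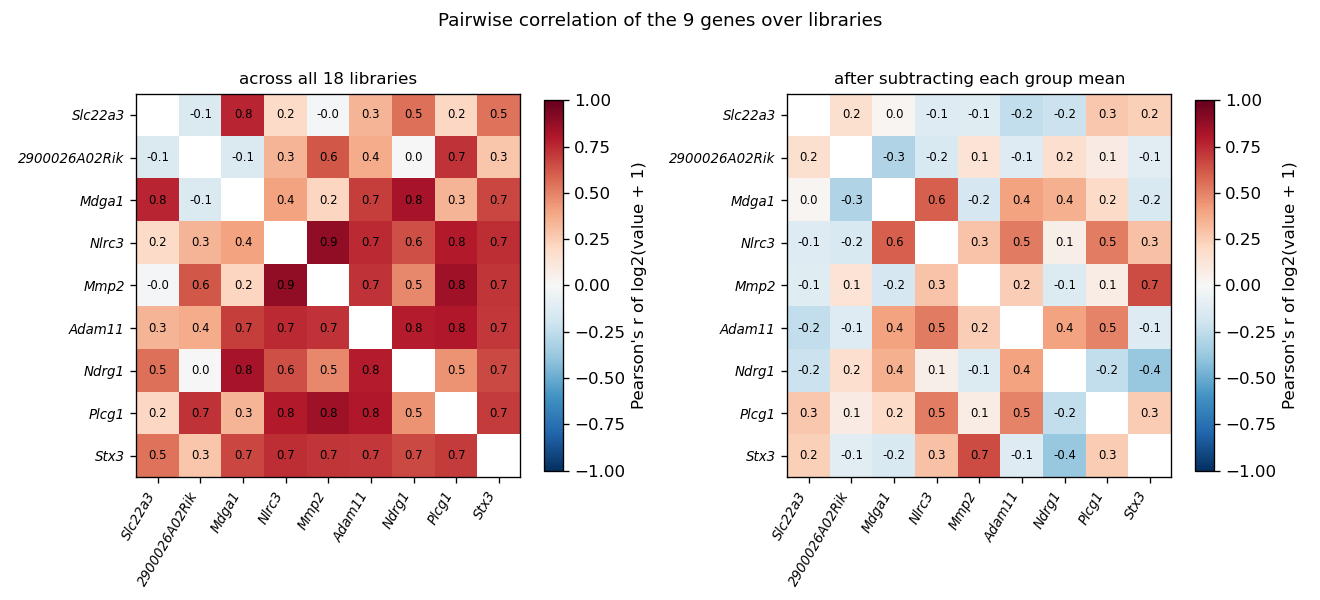
Pearson's r of log2(value + 1) between each pair of the 9 genes, across all 18 libraries (left) and after subtracting each group's mean (right); red is positive and blue negative. The left panel is mostly red, with a median of 0.63, and the right panel is mixed, with a median of 0.11.

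The genes outside the set whose pattern over the 18 libraries was most like each member's are given as a description, with Pearson's r. They share the same group means. For Nlrc3 they were 2610307P16Rik (0.94), Pdgfrb (0.94) and Dhrs3 (0.93), and for Mmp2 they were Paqr5 (0.93), Ccng2 (0.92) and Slc43a2 (0.92). For 2900026A02Rik they were Prr12 (0.92), A930001N09Rik (0.91) and Smad3 (0.90), and for Mdga1 Gm16758 (0.91), Pla2g16 (0.89) and Cpa3 (0.88). Slc22a3 was nearest to Commd7 (0.88), Cpa3 (0.87) and Susd1 (0.85), and Adam11 to Ncoa5 (0.89), BC026585 (0.87) and Ypel3 (0.84). Plcg1 was nearest to Arhgef1 (0.90), Itpr2 (0.86) and Agtrap (0.85), and Ndrg1 to Cd1d1 (0.85), Zbtb8os (0.82) and Acap1 (0.81). Stx3 had the lowest top values, with Ube2b (0.78), Il15 (0.76) and Atat1 (0.76).

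Esr1, the gene of the estrogen receptor alpha that tamoxifen binds, gives a reference for the members. It averaged 40.4 ± 3.00 in LT oil and 22.9 ± 5.00 in LT tamoxifen, 36.7 ± 8.96 and 17.7 ± 8.96 in ST, and 78.5 ± 10.5 and 58.7 ± 7.73 in MPP. It passed the threshold in ST alone (log2 difference -1.13, limma adjusted p = 0.0149); that the populations differ in this was not tested.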

How the data were processed

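RNA-seq was done on 18 libraries in 6 groups of 3. The labels' protocols give Picopure extraction, amplification by Ovation RNA-Seq System V2 and sonication. The authors deposited normalised signal values for 14419 genes. Tools named in the submitters' processing notes are RSEM 1.17, limma, cutadapt and Picard, on build NCBIM37. The scaling, annotation and strand setting were not stated in the sources used here. In each library every value of the deposited signal equals a whole number of reads plus 0.5, times 1 constant (100% within 0.001 read), so reads could be recovered. RSEM gives fractional estimates, so these reads may be rounded.

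Here limma 3.58.1 in R 4.3.3 was fitted to log2(value + 1) over all libraries, with trend and robust variances, 12 residual degrees of freedom and Benjamini-Hochberg adjustment over all genes at 0.05. Differences on this scale understate those of low genes. The fit was tested on simulated data. Population contrasts averaged both treatments. Pearson's r ranked like genes whose mean exceeded the median gene's (20.4); all members are named, as are listed relatives past the threshold, at most 3 per list and comparison, except 1 that is not reported here. The alternatives were other pseudocounts, filters, quantile normalisation, variance settings, library weights, only the groups compared, edgeR 4.0.16 and DESeq2 1.42.0 on recovered reads, a replicate block, single treatments, and each library left out. The members and lists were chosen with earlier results of these data known. Counting intervals are exact (95%), with no molecular identifiers used.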

Additional observations from a re-analysis of the deposited data

How the results depend on the processing

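Of 1166 repeated values, 1068 kept direction and side of the threshold, 70 lost the call, 13 gained it and 15 changed sign, each of the last uncalled. The 2 members lower in MPP became 1 with pseudocount 4, 0 without trend and robust settings (limma; 819 genes had an unadjusted p under 0.05 in the full fit), 1 with edgeR, 2 with DESeq2, and 0 to 2 with 1 library left out. The 6 in LT became 0 when only the LT groups were fitted (limma, with fewer samples; 1952 genes had an unadjusted p under 0.05 in the full fit), and 1 to 7 with 1 library left out; DESeq2 gave 4, of which 2900026A02Rik is not among the 6, with no adjusted p for Nlrc3, Mmp2, Adam11 and Stx3. DESeq2 called 28 genes in all in MPP and 336 in LT, against 8 and 60. In the tamoxifen libraries alone, whose low values chose the members, 6 members differed between MPP and LT, against 3. With only the MPP groups fitted, the 2 MPP members stayed called and 19 genes passed in all, against 8. With only the LT groups fitted, 3 genes passed in all, against 60. The cause of these changes was not tested.

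By the deviations from group means, the replicate labels did not pair oil with tamoxifen libraries within a population (same-label correlations -0.033 to 0.13). With a replicate block 1 member was lower in MPP, where 12 genes in all were called against 8. LT and ST share labels within a treatment; same-label correlations were 0.052 to 0.14, each LT library was nearest to its own label in ST (6 of 6, a hint from the data), and a replicate block across LT and ST, chosen after seeing the data, gave 6 members, as without it.

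Signs changed as follows (log2). With quantile normalisation, MPP against LT gave -0.0144 for 2900026A02Rik and MPP against ST gave 0.0330 for Adam11. With oil alone, MPP against LT gave 0.15 for Slc22a3, -0.24 for Adam11 and -0.040 for Ndrg1. With tamoxifen alone, MPP against LT gave -0.020 for 2900026A02Rik and 0.15 for Mdga1, and MPP against ST gave 0.20 for Adam11 and 0.36 for Stx3. Leaving out 1 library gave -0.0141 to 0.13 for 2900026A02Rik (MPP against LT), -0.29 to 0.00068 for Ndrg1 (tamoxifen in MPP), -0.22 to 0.011 for Slc22a3 (tamoxifen in LT), -0.13 to 0.00696 for Plcg1 (ST against LT), -0.12 to 0.021 for Adam11 (MPP against ST) and -0.021 to 0.24 for Mmp2 (ST against LT).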
